A study of Mus musculus with 12 samples.

Results

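A set of 10 transcription factors of stratified squamous epithelium was followed in mouse mammary organoids: the Krüppel-like factors Klf3, Klf4 and Klf5, the grainyhead-like factors Grhl1, Grhl2 and Grhl3, the zinc finger factors Ovol1, Ovol2 and Zfp750, and the repressor Prdm1. They were chosen by gene symbol, and all 10 were found among the 25210 genes of the deposited count table. The organoids were primary mammary epithelium of virgin FVB/N mice aged 8 to 11 weeks, an inbred laboratory strain with no allele or transgene named in the labels. They were embedded in Matrigel, a basement membrane gel, in a minimal medium. For 7 days they received the vehicle DMSO or 1, 1.5 or 3 µM of CHIR99021. This compound blocks the kinase GSK3 and was used here to switch on the WNT pathway, which signals through β-catenin. Cultures 1, 2 and 3 each came from a different animal and received all 4 treatments, so there were 12 libraries and 3 per group. RNA was taken from whole cultures, in which fewer cells of a type and less RNA per cell cannot be told apart.

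In skin, stem cells of the basal layer stop dividing, move outwards and turn on keratins, transglutaminases and envelope proteins until they form a dead, sealed sheet. The 10 factors act at different levels of that programme. KLF factors bind GC-rich and CACCC-type elements, and Klf4 and Klf5 have different roles, Klf4 in barrier formation and Klf5 mainly in proliferating epithelial cells, while Klf3 acts largely as a repressor. GRHL factors bind a shared DNA motif: Grhl2 maintains epithelial junctions, Grhl1 acts on desmosomal genes and Grhl3 is needed for the epidermal barrier. Ovol1 and Ovol2 are repressors that restrain proliferation and mesenchymal genes. Zfp750 promotes terminal differentiation downstream of p63, and Prdm1, best known from plasma cells, also acts in the granular layer of skin. The normal mammary gland is a bilayer of luminal and basal cells with no cornified layer.

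The promoters of 3 members are shown because these genes gave the patterns that the results turn on: Grhl3 and Klf4 had the highest fold changes at 3 µM, and Ovol2 fell at the last dose step. Each sequence is the 250 bases before the annotated start of a RefSeq transcript in GRCm38.p6, on the gene's own strand. For Ovol2 this start lies inside the gene's span in the deposited table, so the window is that of an internal start and not of the outermost one. Short motifs were searched on both strands and are printed in capitals: CTTTGA, the core recognised by the TCF/LEF partners of β-catenin, and CACCC, recognised by KLF factors, which reads GGGTG on the other strand. No match overlapped another. Of 32851 mouse promoter windows of this length, 13.8% held CTTTGA and 52.0% held CACCC. Among the members the RefSeq table held 6, namely Klf3, Klf4, Grhl1, Grhl3, Ovol2 and Prdm1.
Grhl3, chr4:135573633-135573882, minus strand: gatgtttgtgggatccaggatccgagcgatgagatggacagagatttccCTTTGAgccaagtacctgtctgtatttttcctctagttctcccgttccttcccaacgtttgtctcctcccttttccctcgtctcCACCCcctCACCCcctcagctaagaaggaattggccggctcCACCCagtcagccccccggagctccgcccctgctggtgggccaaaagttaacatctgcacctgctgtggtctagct
Klf4, chr4:55532476-55532725, minus strand: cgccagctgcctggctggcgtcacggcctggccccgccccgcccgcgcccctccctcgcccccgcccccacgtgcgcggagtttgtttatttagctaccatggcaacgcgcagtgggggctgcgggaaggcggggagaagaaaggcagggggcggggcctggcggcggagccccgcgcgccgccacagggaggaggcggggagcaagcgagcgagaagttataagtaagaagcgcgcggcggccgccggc
Ovol2, chr2:144331363-144331612, minus strand: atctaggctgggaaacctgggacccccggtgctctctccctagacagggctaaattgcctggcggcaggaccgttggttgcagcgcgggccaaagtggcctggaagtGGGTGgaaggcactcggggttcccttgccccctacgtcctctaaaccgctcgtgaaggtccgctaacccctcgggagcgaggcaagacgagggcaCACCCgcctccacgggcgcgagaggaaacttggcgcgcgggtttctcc
The Grhl3 window held 1 match to CTTTGA, starting 201 bases before the start site, and 3 matches to CACCC. The Klf4 window held neither motif, and the Ovol2 window held 2 matches to CACCC and 0 to CTTTGA. Klf3 had 5 matches to CACCC in its window. These are matches of letters and were not tested for binding.

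Library totals ran from 10.1 to 24.5 M counts (M, mega), and each of the 10 factors passed the filter on low counts. The lowest count of any member in any library was 9, for Grhl3 in the DMSO library of culture 2. Markers of mammary epithelium were present in all groups: mean levels in DMSO were 825 counts per M counts (CPM) for Krt8, 466 CPM for Epcam, 1090 CPM for Krt14 and 805 CPM for Krt5. Below, a gene is said to rise or fall where its adjusted p from edgeR's quasi-likelihood test is under 0.05 over 15316 genes. Fold changes are log2 values ± SE, and levels are given per library in the order of cultures 1, 2 and 3.

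The factors rose with dose, and most were higher than the vehicle at 1.5 µM. At 3 µM, 9 of 10 rose against DMSO and 0 fell, where 57.5% of all tested genes were called in either direction and 29.9% were called higher. At 1.5 µM, 8 of 10 rose, against 27.3% of all genes called and 15.4% called higher. At 1 µM, 0 of 10 passed the test, against 0.242% of all genes. There, 6 of the 10 had an unadjusted p under 0.05, as had 11.7% of all genes, and all 10 were above their own DMSO library in all 3 cultures, as were 28.2% of all genes. With the animal as a block in the fit, 5 members rose at 1 µM, when 5.61% of all genes were called, and DESeq2 called 1. The median log2 fold change of the 10 was 0.60 at 1 µM, 1.11 at 1.5 µM and 1.72 at 3 µM, beside medians over all genes of -0.0046, -0.0018 and -0.03.

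The levels also separated by library. Each of the 10 members had 3 libraries at 3 µM that did not overlap its 3 DMSO libraries, as did 60.8% of all genes. At 1.5 µM this held for 9 members, all but Prdm1, and for 45.6% of all genes. At 1 µM it held for Klf5, Grhl3 and Ovol2, 3 of 10, and for 19.4% of all genes. Klf3, Klf4, Klf5, Grhl1, Grhl3, Ovol1 and Zfp750 were higher at each dose than at the dose before in all 3 cultures. That is 7 of 10 members, beside 9.48% of all tested genes. Fewer members were called at 1.5 µM when culture 2 was left out. Without that culture, an alternative added after the data were seen, only Grhl3 rose at 1.5 µM (log2 fold change 3.35, adjusted p = 0.0328). The share of all genes called was then 2.98%, against 27.3% with all cultures. The fold changes of the members stayed above 0, from 0.30 for Grhl2 (0.51 with all cultures) to 3.35 for Grhl3 (3.53 with all cultures). At that dose 6 members rose without culture 1, when 9.94% of all genes were called, and 6 without culture 3, when 30.1% were. At 3 µM, 9, 7 and 8 members rose without culture 1, 2 and 3, when 43.2, 31.1 and 58.1% of all genes were called. The fits without a culture had fewer libraries and no block for the animal. Whether the lost calls came from lower power was not tested.

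**Figure D1:**
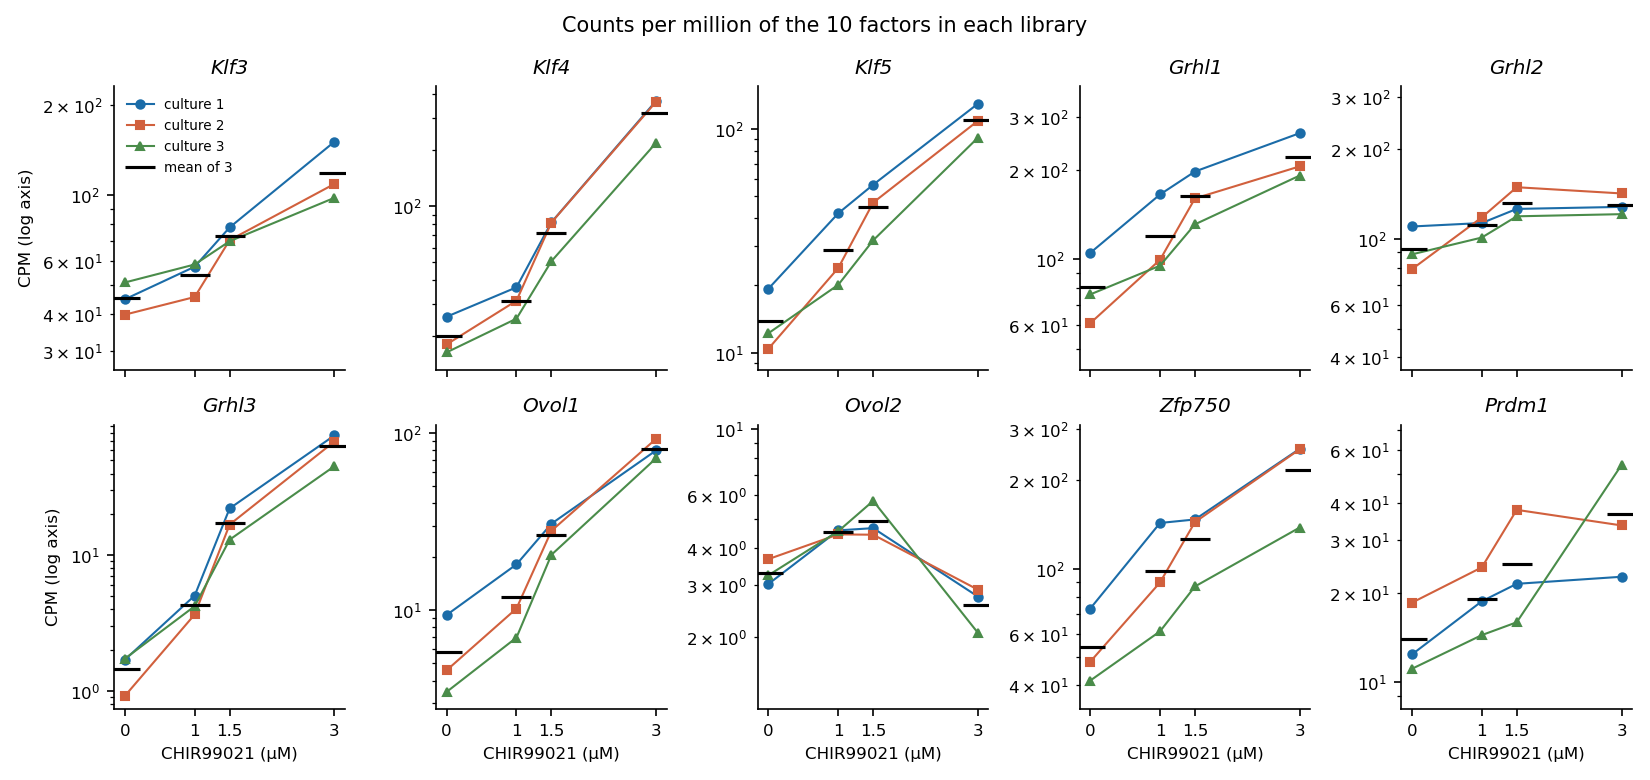
CPM (log axis) of each of the 10 factors against the CHIR99021 dose in µM, with 0 for DMSO. Symbols joined by lines are cultures 1, 2 and 3 and black bars are means of 3 libraries; 7 factors rise at every step in all 3 cultures, and Ovol2 turns down at 3 µM.

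Among the Krüppel-like factors, Klf4 had the highest fold change. Klf4 (ENSMUSG00000003032, chr4:55527143-55532466) stood at 25.5, 18.1 and 16.4 CPM in DMSO, at 36.7, 31.1 and 24.9 at 1 µM, at 82.1, 81.9 and 50.7 at 1.5 µM and at 370, 366 and 220 at 3 µM. The groups from 1.5 µM upwards did not overlap those below them, and culture 3 was lowest in every group. Against DMSO, Klf4 rose by 1.84 ± 0.275 at 1.5 µM (adjusted p = 0.00143) and by 3.99 ± 0.299 at 3 µM (adjusted p = 5.56e-06). In the 3 cultures the fold at 3 µM was 14.5, 20.2 and 13.4. At 1 µM its log2 fold change was 0.62 (adjusted p = 0.403, and 0.0222 with the animal as a block). Klf4 also rose at the step from 1.5 to 3 µM, by 2.15 (adjusted p = 0.000642). Its rise of 1.21 from 1 to 1.5 µM (adjusted p = 0.0314) was lost when any 1 of 6 libraries was left out: each of the 3 at 1 µM, cultures 1 and 2 at 1.5 µM, and DMSO culture 2, with adjusted p from 0.0512 to 0.12. It was also lost with no filter on low counts (0.0605). With the block and all libraries the adjusted p of this step was 0.000609.

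Klf5 (ENSMUSG00000005148, chr14:99298691-99313405) was at 19.3, 10.4 and 12.2 CPM in DMSO, 42, 23.9 and 20.1 at 1 µM, 56.4, 46.9 and 31.8 at 1.5 µM and 130, 109 and 91.6 at 3 µM. Its lowest library at 1 µM was already above its highest DMSO library. The rise was 1.68 ± 0.335 at 1.5 µM (adjusted p = 0.0055) and 2.98 ± 0.349 at 3 µM (adjusted p = 7.23e-05). At 1 µM its log2 fold change was 1.03, with an adjusted p of 0.256 and of 0.0142 with the block. Klf5 rose by 1.30 from 1.5 to 3 µM (adjusted p = 0.0153, and 0.0515 without culture 3 at 1.5 µM). From 1 to 1.5 µM its adjusted p was 0.283. With the block it was 0.0138 at that step and 0.000252 from 1.5 to 3 µM.

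Klf3 (ENSMUSG00000029178, chr5:64803523-64830129) moved least of the 3. It stood at 44.7, 39.7 and 50.9 CPM in DMSO, 57.5, 45.5 and 58.5 at 1 µM, 77.9, 70.6 and 70 at 1.5 µM and 151, 109 and 97.9 at 3 µM. The DMSO and 1 µM libraries overlapped, and those at 1.5 and 3 µM lay above both. Klf3 rose by 0.69 ± 0.167 at 1.5 µM (adjusted p = 0.0131, and 0.064 without DMSO culture 2) and by 1.40 ± 0.169 at 3 µM (adjusted p = 8.09e-05). From 1.5 to 3 µM it rose by 0.71 (adjusted p = 0.0107), a call that was lost when libraries were scaled by their totals alone (0.43, adjusted p = 0.0748). With the block its adjusted p was 0.00349 at 1.5 µM against DMSO, 0.00334 from 1.5 to 3 µM and 0.0478 from 1 to 1.5 µM.

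The grainyhead-like factors started from very different levels. Grhl3 (ENSMUSG00000037188, chr4:135541888-135573630) was nearly silent in DMSO, at 1.69, 0.914 and 1.72 CPM, which are 38, 9 and 32 counts. It stood at 5.03, 3.65 and 4.2 CPM at 1 µM, at 22.1, 16.8 and 13 at 1.5 µM and at 76.4, 68.9 and 45.3 at 3 µM, the last from 974, 1073 and 657 counts. No library of one dose overlapped those of another. Its rise of 5.41 ± 0.326 at 3 µM (adjusted p = 1.87e-06) was the highest of the 10, and the folds in the 3 cultures were 45.2, 75.3 and 26.3. At 1.5 µM the rise was 3.53 ± 0.306 (adjusted p = 0.000132). Grhl3 rose at both later steps, by 2.01 from 1 to 1.5 µM (adjusted p = 0.00653) and by 1.88 from 1.5 to 3 µM (adjusted p = 0.0011). At 1 µM the log2 fold change was 1.53 with an adjusted p of 0.0904, which was 0.0153 with the block and 0.00132 by DESeq2.

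Grhl1 (ENSMUSG00000020656, chr12:24572287-24617391) was abundant from the start, at 105, 61 and 76.2 CPM in DMSO. It reached 165, 99.6 and 95.2 CPM at 1 µM, 197, 160 and 131 at 1.5 µM and 265, 205 and 191 at 3 µM. Culture 1 was highest in each group, and neighbouring doses overlapped. Grhl1 rose by 1.45 ± 0.269 at 3 µM (adjusted p = 0.00121) and by 1.01 ± 0.266 at 1.5 µM (adjusted p = 0.0192). The call at 1.5 µM was lost without DMSO culture 2 (0.0872), without DMSO culture 3 (0.0672) and without culture 1 at 1.5 µM (0.0736). It held with the block and all libraries (0.000232). With the block, Grhl1 also rose at 1 µM (adjusted p = 0.033, against 0.443), from 1 to 1.5 µM (0.022, against 0.372) and from 1.5 to 3 µM (0.0134, against 0.235).

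Grhl2 (ENSMUSG00000022286, chr15:37233036-37363569) changed least among the factors that rose. It was at 110, 79.1 and 88.7 CPM in DMSO, 113, 118 and 101 at 1 µM, 126, 149 and 119 at 1.5 µM and 128, 142 and 121 at 3 µM. The libraries at 1.5 and 3 µM lay above those of DMSO and overlapped each other. It rose by 0.51 ± 0.132 at 1.5 µM (adjusted p = 0.0183) and by 0.49 ± 0.132 at 3 µM (adjusted p = 0.00952). From 1.5 to 3 µM its log2 fold change was -0.02 ± 0.132 (adjusted p = 0.942). The call at 3 µM was lost when libraries were scaled by their totals (0.28, adjusted p = 0.112), when the 2 groups were fitted alone (0.0513) and without culture 2 (0.32, adjusted p = 0.119). The call at 1.5 µM was lost in a fit of the 2 groups alone (0.0688), without DMSO culture 2 (0.0953) or 3 (0.0764), and without culture 2 at 1.5 µM (0.0739). With the block and all libraries the calls held at 3 µM (0.00537) and at 1.5 µM (0.00807).

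The OVOL pair parted at the highest dose. Ovol1 (ENSMUSG00000024922, chr19:5549137-5560575) stood at 9.38, 4.57 and 3.45 CPM in DMSO, 18.1, 10.2 and 6.99 at 1 µM, 30.7, 28 and 20.5 at 1.5 µM and 79.7, 92.7 and 72 at 3 µM. Each group from 1.5 µM upwards lay above all lower ones. Ovol1 rose by 2.17 ± 0.412 at 1.5 µM (adjusted p = 0.00439) and by 3.80 ± 0.436 at 3 µM (adjusted p = 6.36e-05), with folds at 3 µM of 8.51, 20.3 and 20.9 in the 3 cultures. It rose again from 1.5 to 3 µM, by 1.63 (adjusted p = 0.0129). From 1 to 1.5 µM the log2 fold change was 1.16, with an adjusted p of 0.123, of 0.00962 with the block and of 0.0478 by DESeq2. At 1 µM the adjusted p was 0.369.

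Ovol2 (ENSMUSG00000037279, chr2:144305175-144332146) was scarce throughout and was not monotonic in any culture. Its levels were 3.02, 3.66 and 3.23 CPM in DMSO, 4.57, 4.43 and 4.54 at 1 µM, 4.65, 4.42 and 5.74 at 1.5 µM and 2.74, 2.89 and 2.07 at 3 µM, the last from 35, 45 and 30 counts. All 3 libraries at 3 µM lay below all 3 DMSO libraries, and those at 1 and 1.5 µM lay above them. From 1.5 to 3 µM Ovol2 fell by 0.94 ± 0.201 on the log2 scale (adjusted p = 0.00724). The value at 3 µM was 0.591, 0.654 and 0.361 of that at 1.5 µM in the 3 cultures, and the fall was called in all 17 other fits, which used another tool, scaling, filter or block or left out 1 library, from -1.22 to -0.80. Against DMSO the log2 fold change at 3 µM was -0.36 ± 0.202 (adjusted p = 0.151, and 0.0255 at -0.56 when libraries were scaled by their totals). At 1.5 µM it was 0.58 ± 0.199 (adjusted p = 0.0528). That value passed the test with the block (0.0313), by DESeq2 (0.0359), with scaling by totals (0.0232) and without culture 3 at 3 µM (0.0349).

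Zfp750 (ENSMUSG00000039238, chr11:121510978-121519333) was well expressed in the vehicle, at 73, 48.1 and 41.5 CPM. It stood at 143, 89.7 and 61.1 CPM at 1 µM, 147, 144 and 86.9 at 1.5 µM and 256, 255 and 138 at 3 µM. Culture 3 was lowest in each group, and its level at 3 µM was below those of cultures 1 and 2 at 1.5 µM. Zfp750 rose 3.99-fold at 3 µM, with an SE of 0.377 on the log2 scale (adjusted p = 0.00132, and 0.0626 without culture 2 in any group). At 1.5 µM it rose by 1.21 ± 0.369 (adjusted p = 0.0343). That call was lost when 1 of 6 libraries was left out, namely DMSO culture 2 or 3, culture 2 at 1 µM, culture 1 or 2 at 1.5 µM, or culture 2 at 3 µM, with adjusted p from 0.0501 to 0.124, and with no filter on low counts (0.0762). With the block and all libraries the calls at 1.5 and 3 µM held (adjusted p = 0.000351 and 7.02e-06). In that fit Zfp750 also rose at 1 µM (adjusted p = 0.0221, against 0.399) and from 1.5 to 3 µM (0.00309, against 0.13).

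Prdm1 (ENSMUSG00000038151, chr10:44437177-44528501) took a different course in each culture. It stood at 12.4, 18.5 and 11.1 CPM in DMSO, 18.7, 24.3 and 14.4 at 1 µM, 21.4, 37.9 and 15.9 at 1.5 µM and 22.6, 33.6 and 53.6 at 3 µM. Culture 2 was highest up to 1.5 µM and culture 3 was highest at 3 µM. The fold at 3 µM over 1.5 µM was 1.06, 0.888 and 3.37 in the 3 cultures. Prdm1 rose by 1.40 ± 0.396 at 3 µM (adjusted p = 0.0124). The call was lost without culture 3 at 3 µM (0.99, adjusted p = 0.0524), without DMSO culture 3 (0.0526) and without all of culture 3 (0.87, adjusted p = 0.0683). With the block and all libraries Prdm1 still rose at 3 µM (adjusted p = 0.00521). At 1.5 µM its log2 fold change was 0.85 (adjusted p = 0.133), and at 1 µM 0.46 (adjusted p = 0.72). Of markers of lymphoid and plasma cells, in which Prdm1 is also expressed, Mzb1 averaged 0.271 CPM in DMSO and 0.124 at 3 µM, and Cd79a 0.142 and 0.0689 CPM, with at most 8 and 6 counts in any library. Cd3e, Cd3g and Ms4a1 had at most 2 counts in any library.

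**Figure D2:**
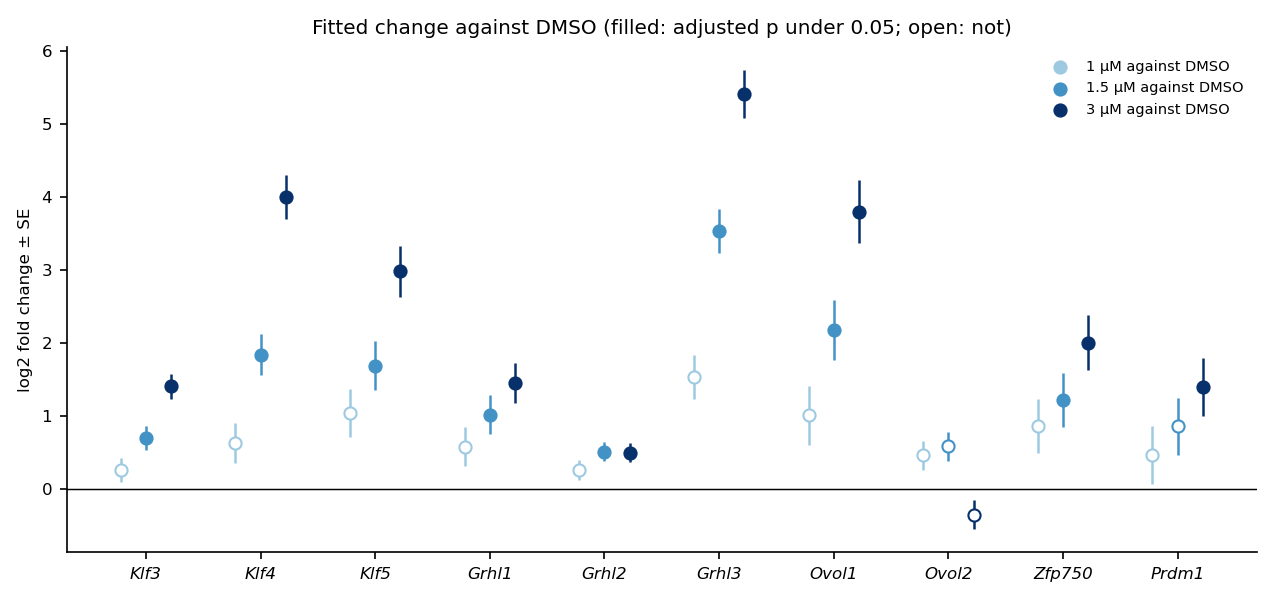
Log2 fold change against DMSO (vertical axis, ± SE of the fit over 12 libraries) of each factor at 1, 1.5 and 3 µM CHIR99021, with filled points for an adjusted p under 0.05. All 10 are open at 1 µM, and at 3 µM only Ovol2 lies below 0, at -0.36.

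The steps between doses differed among members. From 1 to 1.5 µM, 2 of 10 rose, Klf4 and Grhl3, where 5.43% of all genes were called and 4.43% were higher. With the block 6 rose, against 21.9% of all genes. From 1.5 to 3 µM, 5 rose (Klf3, Klf4, Klf5, Grhl3 and Ovol1) and 1 fell (Ovol2), where 29.7% of all genes were called, 17% higher and 12.7% lower. With the block 7 rose and 1 fell, against 46.7% of all genes called. The comparisons of 1, 1.5 and 3 µM against DMSO share their DMSO libraries, and neighbouring steps share the libraries of the dose between them. The steps also differ in size, so no rate per µM was compared.

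Within each family the make-up of the transcripts changed with dose. Levels of different genes were compared as CPM per kb of exon, using the merged exons of GENCODE M21, and summed over the family. Grhl3 held 1.99 ± 0.46% of the GRHL sum in DMSO (SD, n = 3), 4.32 ± 0.56% at 1 µM, 12.1 ± 1.37% at 1.5 µM and 29.0 ± 3.49% at 3 µM. Over the same doses the share of Grhl2, which rose only slightly, went from 42.0 ± 2.65% to 19.8 ± 2.8%. Grhl1 kept the highest share at each dose, with 56.0 ± 2.5% in DMSO and 51.2 ± 3.39% at 3 µM. In the OVOL pair, Ovol1 held 65.3, 43.1 and 39.3% in DMSO and 94.6, 95.1 and 95.5% at 3 µM. The cultures thus ranged widely in the vehicle and lay within 1 percentage point at 3 µM. The raw count ratio of Ovol1 to Ovol2 went from 3.1, 1.25 and 1.07 in DMSO to 29.1, 32.1 and 34.8 at 3 µM. Among the 3 Krüppel-like members, Klf4 held 49.3 ± 4.65% in DMSO and 76.3 ± 3.19% at 3 µM, while Klf3 went from 30.8 ± 6.08% to 7.89 ± 1.29%. The raw count ratio of Klf4 to Klf3 went from 0.569, 0.455 and 0.322 in DMSO to 2.45, 3.37 and 2.25 at 3 µM. In GENCODE M21, Klf3 ends at 64832901 and Klf5 at 99315036, past their ends in the deposited table (64830129 and 99313405). Their levels per kb, and so their shares, may be too low. These shares follow from the levels above and were not tested separately.

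**Figure D3:**
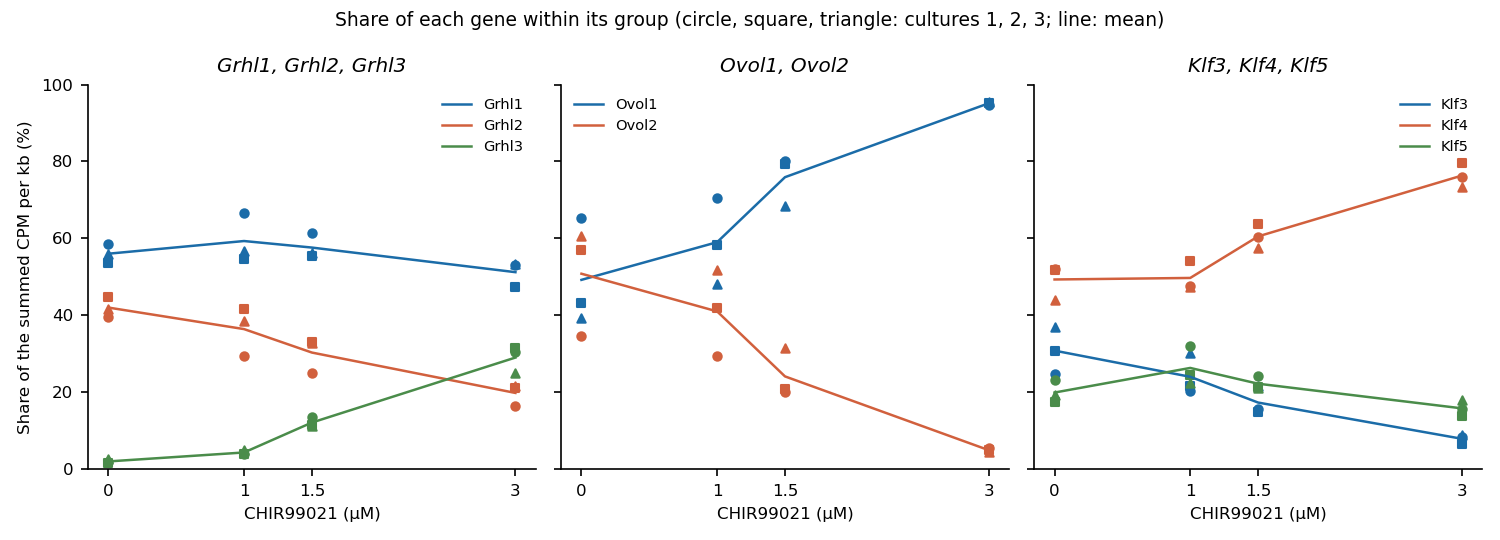
Share in percent of the summed CPM per kb held by each member of the GRHL, OVOL and KLF groups (vertical axis) against CHIR99021 dose in µM. Symbols are the 3 cultures and lines are means; Grhl3 goes from 1.99 to 29.0%, Ovol1 from 49.2 to 95.1% and Klf4 from 49.3 to 76.3%.

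The order of the factors by level was different at the ends of the dose range. In DMSO the mean levels ran from Zfp750 (16.8 CPM per kb), Grhl1 (14.6) and Grhl2 (10.8) through Klf4 (6.56), Klf3 (4.01), Klf5 (2.69), Prdm1 (2.51), Ovol1 (1.66) and Ovol2 (1.56) to Grhl3 (0.517). Neighbours in this order overlapped between libraries except Grhl2 and Klf4, Klf4 and Klf3, and Ovol2 and Grhl3. At 3 µM Klf4 came first (105 CPM per kb), followed by Zfp750 (66.9), Grhl1 (39.8), Ovol1 (23.4), Grhl3 (22.8), Klf5 (21.2), Grhl2 (15.1), Klf3 (10.6), Prdm1 (6.56) and Ovol2 (1.21). Here the neighbours that did not overlap were Grhl1 and Ovol1, Klf5 and Grhl2, Grhl2 and Klf3, and Prdm1 and Ovol2. Grhl3 thus went from the last place to the fifth, with Ovol1 and Klf5 not separated from it. The places of Klf3 and Klf5 may be too low, because their GENCODE exons reach past the genes of the deposited table.

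As a description of the 12 libraries, which share doses and animals, Pearson's r of log2 CPM between members was highest for Klf5 and Ovol1, at 0.985. Klf4 had an r of 0.973 with Ovol1 and of 0.966 with Grhl3. Ovol2 had a negative r with each of the others, from -0.48 with Klf4 to -0.0102 with Grhl2. After the group means were removed, r was 0.875 for Klf5 and Ovol1, 0.789 for Klf4 and Ovol1 and 0.672 for Klf4 and Grhl3. For Ovol2 it was then 0.00193 with Klf4 and -0.299 with Grhl2. The highest values were those of Klf5 and Grhl1 (0.977) and of Klf4 and Zfp750 (0.96), and the lowest was that of Klf3 and Prdm1 (-0.735). Among 12429 genes averaging at least 50 counts, those most like Grhl3 over the 12 libraries were Rrp15 (r = 0.9973), Npm1 (0.9939) and Wdr43 (0.9935). Klf4 was followed most closely by Urah (0.9963), Sfn (0.9946) and Prep (0.9943), and Ovol1 by Gm16286 (0.997), Il1f9 (0.9936) and Rell1 (0.9933). Likeness here is in shape, not size: Npm1, a nucleolar protein, rose by 1.81 at 3 µM where Grhl3 rose by 5.41, and Sfn, the 14-3-3 protein stratifin of stratified epithelium, rose by 4.91 where Klf4 rose by 3.99.

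Other transcription regulators of epidermis were read as a list of 19. At 3 µM, 13 rose, 1 fell and 5 did not pass the test, where 57.5% of all genes were called and 29.9% were higher. The median log2 fold change was 1.00 beside -0.03 over all genes. At 1.5 µM, 8 rose and 1 fell, where 27.3% of all genes were called and 15.4% were higher. With the block these were 11 and 3, beside 46.7% of all genes called. At 1 µM 0 were called, beside 0.242% of all genes. With the block 2 rose and 1 fell there, beside 5.61% of all genes called. The POU factor Pou3f1 rose by 7.39 at 3 µM (adjusted p = 0.000209), from 0.129 ± 0.0423 CPM in DMSO to 23.9 ± 12.2. Hopx, a homeodomain cofactor, rose by 5.74 (adjusted p = 1.88e-05), and Foxn1, a regulator of keratinocyte and hair differentiation, by 5.72 (adjusted p = 2.3e-05). Cebpa was the gene that fell, by 1.75 on the log2 scale (adjusted p = 0.00118).

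The structural genes of the squamous programme had a higher median change than the factors, though the values of single genes overlapped. Of 14 such products, 13 rose at 1.5 µM and 13 at 3 µM, where 15.4% and 29.9% of all genes were called higher. The medians were 5.99 and 7.05. At 1 µM 0 passed the test, beside 0.242% of all genes, and 8 rose with the block, beside 5.61% of all genes called. Lor and Flg had 3 counts each over the DMSO libraries, and their fold changes at 3 µM (10.68 and 10.03) lay well above the median. Setting them at a floor of 3 counts could therefore not move the median and is no check on it. Krt1, a suprabasal keratin, rose by 12.46 at 3 µM (adjusted p = 0.000331), from 38 counts over the DMSO libraries to 85997, 78168 and 3910 counts. Tgm3, a transglutaminase of the envelope, rose by 10.84 (adjusted p = 0.000332), with 9 counts in DMSO and 5801, 8327 and 261 at 3 µM. Lor, the envelope protein loricrin, rose from 3 counts in DMSO to 2233, 2023 and 229 at 3 µM (adjusted p = 0.00126). In CPM at 3 µM, culture 3 was the lowest in 12 of the 14 products. It was also the lowest for every member of the set except Prdm1, including Ovol2, and the share over all genes was not taken. The other products were Cdsn (364, 410 and 766 CPM) and Sbsn (508, 585 and 611 CPM), both lowest in culture 1. Tgm5 was the gene that did not pass (1.88, adjusted p = 0.136, and 0.00167 with the block).

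General epithelial and mesenchymal genes were followed as lists of 9 and 7. Whether GRHL or OVOL factors act on them here was not tested. Of the epithelial genes, 5 of 9 rose at 3 µM and 0 fell, with a median of 0.84. The share called is near the 57.5% of all genes called at this dose. These included the claudin Cldn4 (2.49, adjusted p = 0.00187), the trafficking GTPase Rab25 (1.75, adjusted p = 0.000127) and the splicing regulator Esrp1 (0.95, adjusted p = 0.000534). With the block 8 rose, when 68.9% of all genes were called. Of the 7 mesenchymal genes 3 fell and 1 rose, with a median of -1.86, and the share called is again near 57.5%. N-cadherin, Cdh2, fell by 3.09 on the log2 scale (adjusted p = 0.000522), Zeb2, a repressor of epithelial genes, fell by 2.95 (adjusted p = 0.00273) and Vim, the intermediate filament vimentin, fell by 2.21 (adjusted p = 0.0332). With the block 6 fell and 1 rose. Snai2, also a factor of basal mammary cells, rose by 1.43 (adjusted p = 0.000981), from 18.5 ± 5.25 to 49.6 ± 7.43 CPM. Sums of fibroblast markers, given below, moved with this list.

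The 14 further Krüppel-like genes did not move one way. Of the 11 that were tested, 3 rose, 4 fell and 4 did not pass at 3 µM, with a median of -0.30, beside 57.5% of all genes called. With the block 3 rose and 6 fell, beside 68.9%. Klf10 rose by 1.30 (adjusted p = 8.09e-06), Klf7 by 1.02 (adjusted p = 0.0214) and Klf16 by 0.77 (adjusted p = 0.00346). Klf15 fell by 3.50 on the log2 scale (adjusted p = 5.17e-05), Klf2, a factor prominent in endothelium, fell by 2.87 (adjusted p = 0.0012) and Klf9 fell by 1.08 (adjusted p = 0.00961). Endothelial markers fell as well.

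**Figure D4:**
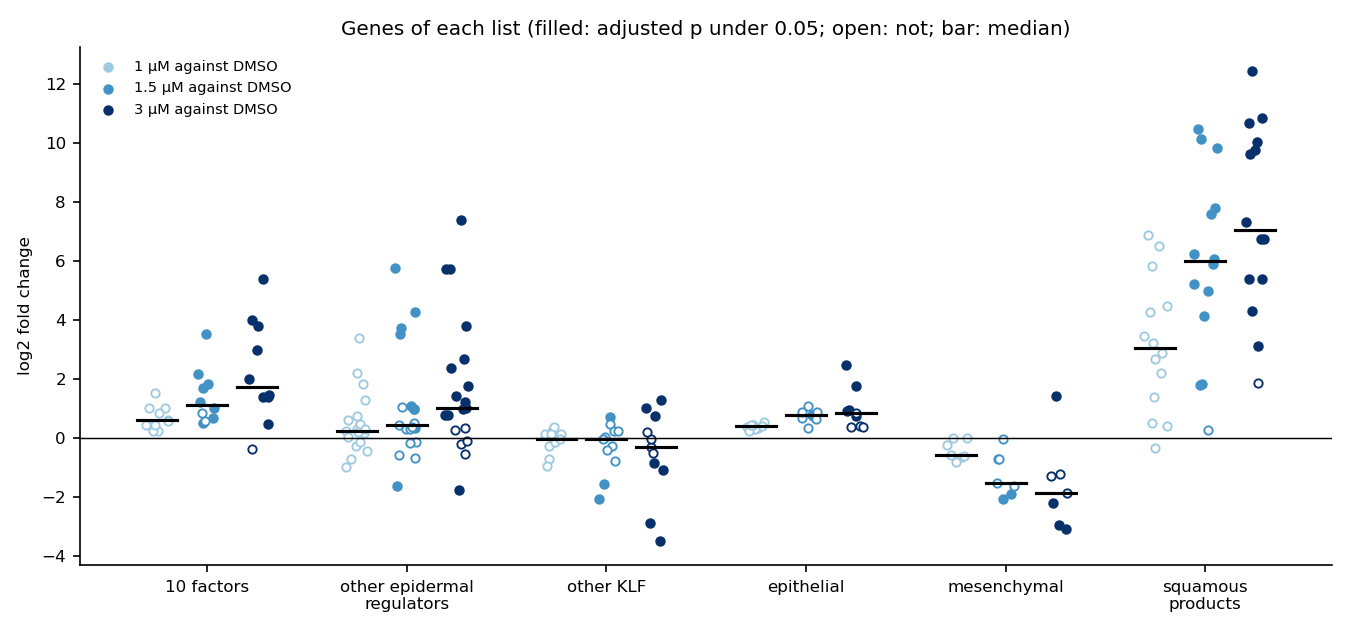
Log2 fold change against DMSO (vertical axis) of each tested gene of 6 lists at 1, 1.5 and 3 µM, with filled points for an adjusted p under 0.05 and bars for medians. Medians at 3 µM are 1.72 for the 10 factors, 7.05 for squamous products and -1.86 for mesenchymal genes.

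Markers of other cell types moved with dose and differed between cultures. The sum of 7 fibroblast markers was 1620, 7370 and 20500 CPM in the DMSO libraries of cultures 1, 2 and 3, and 175, 972 and 4570 CPM at 3 µM. The sum was lower at 3 µM in all 3 cultures. At 3 µM 0 of 7 passed the test, and 6 of 7 fell with the animal as a block. At this dose 57.5% of all genes were called, and 68.9% with the block. Dcn had a higher mean at 3 µM (400 CPM) than in DMSO (294 CPM), and the other fibroblast markers had lower means. The sum of 5 macrophage markers ranged from 258 to 2510 CPM in DMSO and from 38.7 to 116 at 3 µM, and 4 of 5 fell. The sum of 5 endothelial markers ranged from 243 to 503 CPM in DMSO and from 27.1 to 86.6 at 3 µM, and 5 of 5 fell. No defining marker of these 3 types was at 0 in a group, and their part in the changes above was not tested. Among 5 basal markers, Krt5, Krt14 and Trp63 rose at 3 µM and the contractile genes Acta2 and Myh11 fell, and the sum went from between 1820 and 3080 CPM to between 14500 and 31300. The sum of 5 luminal markers went from between 2590 and 4250 CPM to between 1980 and 2160. Of the 5, 3 fell, and the share called is near the 57.5% of all genes called.

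**Figure D5:**
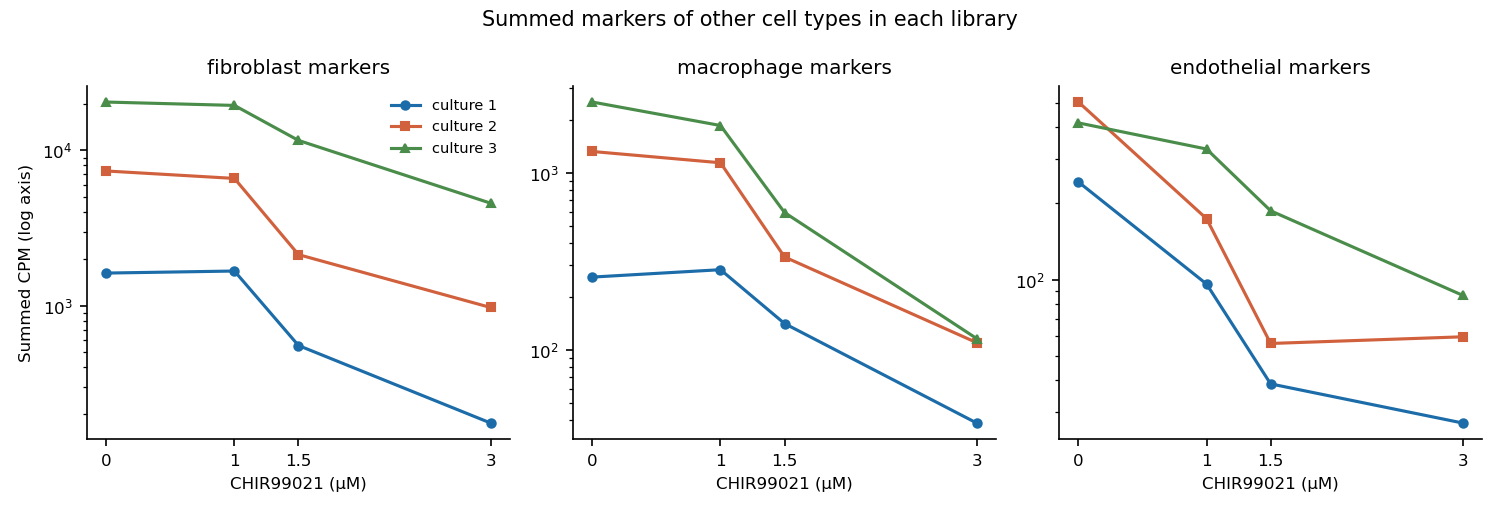
Summed CPM (log axis) of fibroblast, macrophage and endothelial markers against CHIR99021 dose in µM, with 1 line per culture. Culture 3 is highest for fibroblast markers at every dose, and the fibroblast sums at 3 µM are 175, 972 and 4570 CPM.

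Some members share ground with other genes in GENCODE M21. Opposite-strand exons overlap those of Klf3 (Gm20033, 404 bases), Grhl2 (Gm16136, 169), Ovol1 (Gm31166, 690, and AC126029.1, 76) and Ovol2 (1700108N11Rik, 359), and Zfp750 lies within Tbcd on the opposite strand, with 0 shared exonic bases. The libraries were stranded, but whether the counting used the strand is not given in the sources used here, so reads of such pairs may not be told apart. Klf4, Klf5, Grhl1, Grhl3 and Prdm1 have no exonic overlap of this kind.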

How the data were processed

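Polyadenylated RNA of 12 organoid libraries was prepared with a stranded TruSeq kit and sequenced on an Illumina HiSeq, per the labels' protocols. The authors deposited raw read counts per Ensembl gene; the submitters' processing notes name TopHat2 2.1, Bowtie 1.1.0, HTSeq and DESeq2 with GRCm38/mm10, and the strand setting and annotation release are not given in the sources used here. Coordinates are those of the deposited table. Columns of no known sample numbered 0. Replicate libraries differed by far more than sampling noise (chi-square per degree of freedom at least 13.4), so none was taken for a copy.

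From the counts, genes were kept with filterByExpr and scaled with TMM, and each comparison was a contrast in one quasi-likelihood fit over all 12 libraries with group only (edgeR 4.0.16, R 4.3.3, robust, two-sided), adjusted by Benjamini-Hochberg over 15316 genes with a threshold of 0.05. The code was run on simulated data with no animal effect and less spread than these libraries had in the main fit. That run checks the code and not the calls. CPM use TMM-scaled totals; log2 CPM for correlations use a prior count of 2. Totals were 10.1 to 24.5 M counts, and no molecular identifiers are described. Alternatives were DESeq2 1.42.0, scaling by totals, no filter, a fit of the 2 groups alone, the replicate block, and each library left out; leaving out a whole culture was added after the data were seen.

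The number of a culture marks its animal, so the numbers pair libraries: deviations from group means correlated in 18 of 18 pairs with the same number (r from 0.177 to 0.84), and 36 pairs of unlike number had a median r of -0.212. The negative value follows from removing the group means once pairs with the same number correlate, and is no separate support. edgeR's common biological coefficient of variation went from 0.305 to 0.156 when the block was added.

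The members and lists were chosen with earlier results of these data known. All 10 members are named; of each other list, up to 3 called genes in each direction with the largest log2 fold change at 3 µM and at least 10 counts on average. For likeness, the 3 members with the largest fold change at 3 µM were used, with 3 genes each. Other genes named, among them the marker genes, Tgm5 and the keratins of the epithelium check, were chosen after their values were seen. A marker of the lymphoid list is not reported here. Adgre1 and Jchain of the marker lists were not found under these symbols, and Klf1, Klf14, Klf17 and the lymphoid genes were too low to test.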

Additional observations from a re-analysis of the deposited data

How the results depend on the processing

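In the 17 other fits (another tool, scaling, filter, block or pair of groups, or 1 library left out), 800 values of single members kept their direction and their side of the threshold, 28 lost and 18 gained a call, and 4 changed sign. Klf4, Klf5, Grhl3 and Ovol1 rose at 1.5 and 3 µM against DMSO in all 17. The count of members called at 1 µM was 0, and 1 with DESeq2, 5 with the replicate block and 0 with any library left out. At 1.5 µM it was 8, and from 4 (without DMSO culture 2) to 9 with 1 library left out, 5 being left without DMSO culture 3; it was 1 without all of culture 2. From 1 to 1.5 µM it was 2, and 6 with the replicate block, 1 with no filter on low counts and from 1 to 2 with 1 library left out, the call of Klf4 being the one lost. At 3 µM the range over all 17 fits was 8 to 9, and from 1.5 to 3 µM it was 5 to 8, with 8 under the replicate block. The replicate block changed no member's call other than those printed with the results. Without culture 2 at 1.5 µM, Prdm1 reversed between 1 and 1.5 µM (-0.0387, adjusted p = 0.978; without culture 3 at 1.5 µM the value was 0.64). Grhl2 reversed between 1.5 and 3 µM without culture 1 at 3 µM (0.0030), culture 3 at 3 µM (0.0418) or culture 2 at 1.5 µM (0.0843). Its lowest value with 1 library left out was -0.0789, without culture 3 at 1.5 µM, and over all 17 fits it was -0.293. The cause of these changes was not tested. Scaling by totals alone moved the median of all genes at 3 µM to -0.23 (3395 higher and 5404 lower, against 4575 and 4239) and from 1.5 to 3 µM to -0.28 (1050 higher and 3860 lower, against 2601 and 1943), and reversed no member. The precision is limited by the 3 animals, and the main fit did not pair the libraries of an animal. Ovol2, with 30 to 45 counts at 3 µM, had an SE of 0.202 there, and of 0.201 with the replicate block. Zfp750, the member with 256, 255 and 138 CPM, had an SE of 0.377, and of 0.153 with the block.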
